A study of Mus musculus with 12 samples.

Results

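Coro2a, Dock10, Pla2g4a, Scarf2, Lrp1, Nmnat3 and Reps2 are 7 of the 14096 genes listed for the glomeruli of 12 mice, and they were chosen by the size of their response to arctigenin (ATG) against its error. The choice rested on a low p for the difference between the ATG effects in diabetic and nondiabetic mice, or for the ATG effect in nondiabetic mice alone. Their values in those comparisons are therefore given as a description, without a test. All 7 genes were found by their symbol, once each, and all 7 had a value in every mouse.

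ATG is a plant lignan that was given to mice with a model of diabetic kidney disease. All 12 mice were male eNOS−/− animals on a C57BL/6J background, so the nondiabetic mice also lacked intact endothelial nitric oxide synthase (Nos3). Diabetes was induced at 8 weeks of age with streptozotocin (STZ) at 50 mg/kg on 5 consecutive days, and nondiabetic mice received citrate buffer. Treatment began 10 weeks after induction, lasted 8 weeks and consisted of ATG at 40 mg/kg per day or 5% DMSO as vehicle, by gavage, so that the mice were studied 18 weeks after induction. Each of the 4 combinations was measured in 3 mice by sequencing of mRNA from isolated glomeruli. The labels also describe dissociation and sorting of glomerular cells by a fluorescent protein, which the study's methods for sequencing do not mention.

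The glomerulus is the filter of the kidney. It is built of podocytes, endothelial cells and mesangial cells, and isolated glomeruli carry variable amounts of attached tubule. The 7 genes act at different places in such cells. Coro2a encodes a coronin, a WD-repeat protein that binds actin, and Dock10 encodes a guanine nucleotide exchange factor for small GTPases. Pla2g4a encodes cytosolic phospholipase A2, which releases arachidonic acid from membranes. Scarf2 encodes a scavenger receptor of class F, and Lrp1 encodes a large endocytic receptor of the LDL receptor family. Nmnat3 encodes an enzyme of NAD synthesis found in mitochondria. Reps2 encodes an EPS15 homology protein that takes part in receptor endocytosis.

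The deposited values are log2 of normalised reads per gene and carry no correction for gene length. Per mouse, 23.6 to 29.8 M (mega) reads were assigned to the listed genes. The podocyte marker Nphs1 was high in all 4 groups (14.65 to 16.52 over all mice on the log2 scale). Nos3 itself was read in all 12 mice, at a mean log2 value of 11.01 ± 0.23 (SD, n = 3) in vehicle-treated and 10.46 ± 0.34 in ATG-treated nondiabetic mice, and of 11.31 ± 0.14 and 11.28 ± 0.063 in the corresponding diabetic mice. The gene has a single value per mouse, and how reads were counted along it is not given in the sources used here. These values therefore do not check the disruption.

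The genes lie on 6 chromosomes of GRCm38.p6. By the RefSeq gene table, Dock10 (chr1:80501068-80758765) and Pla2g4a (chr1:149829618-149961290) share chromosome 1. Coro2a lies at chr4:46536937-46601929, Nmnat3 at chr9:98287433-98420533, Lrp1 at chr10:127538157-127621148, Scarf2 at chr16:17797282-17808294 and Reps2 at chrX:162411952-162643705. Scarf2 and Nmnat3 are on the plus strand and the other 5 on the minus strand. Noncoding genes or pseudogenes of that table overlap the spans of Coro2a, Lrp1, Nmnat3 and Reps2, none of which is listed in the deposited data. Whether reads were assigned by strand is not given in the sources used here.

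Scarf2, Lrp1 and Reps2 are shown by the 250 bases before the start of the deposited transcript, because Scarf2 and Lrp1 had the lowest p of all genes for the ATG effect in nondiabetic mice and Reps2 varied opposite to Scarf2 over the mice. The sequences are from RefSeq (GRCm38.p6), read 5′ to 3′ on the gene's own strand, with capitals for the letters of a GC box (GGGCGG, both strands) or of an NF-kB motif (GGANTTTCC, both strands).
Scarf2, chr16:17797032-17797281, plus strand: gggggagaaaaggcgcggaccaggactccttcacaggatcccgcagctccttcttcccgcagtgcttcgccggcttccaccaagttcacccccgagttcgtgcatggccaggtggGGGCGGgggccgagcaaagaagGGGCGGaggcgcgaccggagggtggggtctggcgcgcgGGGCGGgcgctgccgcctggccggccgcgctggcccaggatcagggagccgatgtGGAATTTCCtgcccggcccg
Lrp1, chr10:127621149-127621398, minus strand: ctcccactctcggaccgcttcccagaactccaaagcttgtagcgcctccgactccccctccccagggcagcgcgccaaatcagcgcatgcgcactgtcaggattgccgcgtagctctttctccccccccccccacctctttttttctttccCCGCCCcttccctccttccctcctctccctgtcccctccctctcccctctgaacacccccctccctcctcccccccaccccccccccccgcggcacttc
Reps2, chrX:162643659-162643908, minus strand: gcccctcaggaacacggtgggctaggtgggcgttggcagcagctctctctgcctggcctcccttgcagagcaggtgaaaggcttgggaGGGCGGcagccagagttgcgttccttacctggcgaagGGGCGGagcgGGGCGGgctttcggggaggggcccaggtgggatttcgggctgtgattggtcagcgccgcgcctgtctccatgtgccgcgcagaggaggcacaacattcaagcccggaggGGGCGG
The Scarf2 and Lrp1 windows lie outside the gene spans given above, and 47 bases of the Reps2 window, with the last GC box, lie inside its span. The GC box letters occur 3 times in the Scarf2 window, once in that of Lrp1 and 4 times in that of Reps2, and they are held by 32.7% of all 32851 RefSeq promoter windows of this length. The Nmnat3 window has 2 matches, and those of Coro2a, Dock10 and Pla2g4a have 0. These 4 windows lie wholly inside the gene spans, before an internal start. Coro2a, Dock10, Pla2g4a and Reps2 have 2 windows each in the RefSeq table, of which only the one at the deposited transcript was read. The NF-kB letters occur in the Scarf2 window alone among the 7, starting at position −20 from the gene's start, and in 1.07% of all windows. The letters of a TATA box (TATAAA, both strands) occur only in the Pla2g4a window among the 7, at position −200, against 12.4% of all windows. There they read TTTATA on the gene's own strand, so the match is on the opposite strand. None of the 7 windows holds a CRE (TGACGTCA, 1.55% of all), an AP-1 site (TGANTCA, 6.75%) or an E-box (CACGTG, 6.02%), each searched on both strands. GC content was 72% for Scarf2, 68% for Reps2 and 67.2% for Lrp1, and between 39.6% and 49.2% for the other 4 genes, against a median of 52.4%. A match of letters is a description and does not show a bound site.

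Corrected for length, Scarf2 was the most abundant of the 7 transcripts, with a mean of 17.7 reads per kilobase and per M assigned reads over the 12 mice. Pla2g4a followed at 14.4 and Coro2a at 12.8, then Lrp1 at 8.17 and Nmnat3 at 6.02, while Dock10 (4.17) and Reps2 (4.09) were the lowest. Of all listed genes, 65.7% had a lower mean on this scale than Scarf2 and 25.9% a lower mean than Reps2. The fewest reads behind any value were the 292 of Nmnat3 in 1 vehicle-treated diabetic mouse, and the most were the 4271 of Lrp1 in 1 ATG-treated diabetic mouse.

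Coro2a was the gene with the lowest p for the difference between the ATG effects. Its log2 values were 10.78, 10.75 and 10.84 in vehicle-treated and 10.23, 10.07 and 9.81 in ATG-treated nondiabetic mice. In diabetic mice they were 10.18, 10.41 and 10.47 with vehicle and 11.05, 11.18 and 10.93 with ATG. All 3 ATG-treated mice were below the vehicle-treated mice without diabetes and above them with diabetes, and the ATG-treated nondiabetic range overlapped only that of vehicle-treated diabetic mice. The ATG effect was −0.75 (SE 0.11) in nondiabetic mice, 1.69-fold lower, and 0.70 (SE 0.11) in diabetic mice, 1.63-fold higher. Coro2a thus had the largest ATG effect of the 7 genes within diabetic mice.

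Dock10 had the second place by p for the difference. With vehicle, nondiabetic mice had log2 values of 10.16, 9.95 and 10.19, and with ATG they had 9.21, 9.29 and 9.15. The diabetic mice had 9.64, 9.78 and 9.86 with vehicle and 9.93, 10.16 and 10.12 with ATG. The 3 ATG-treated nondiabetic mice were below the other 9, and the ATG-treated diabetic mice overlapped the vehicle-treated nondiabetic mice. The ATG effect was −0.88 (SE 0.092) without diabetes, 1.84-fold lower, and 0.31 (SE 0.092) with diabetes, 1.24-fold higher.

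Pla2g4a, the phospholipase, had the smallest difference in nondiabetic mice among the 5 genes that were lower with ATG. Its log2 values were 10.29, 10.25 and 10.32 with vehicle and 9.78, 9.72 and 9.85 with ATG in nondiabetic mice. In diabetic mice they were 10.37, 10.19 and 10.16 with vehicle and 10.59, 10.59 and 10.61 with ATG. The ATG-treated nondiabetic mice were below, and the ATG-treated diabetic mice above, all other mice. The effect was −0.50 (SE 0.067), 1.42-fold lower, in nondiabetic mice and 0.35 (SE 0.067), 1.28-fold higher, in diabetic mice. With Coro2a and Dock10, it is 1 of 3 genes among the 7 whose ATG effect within diabetic mice was more than 3 times its standard error.

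**Figure D1:**
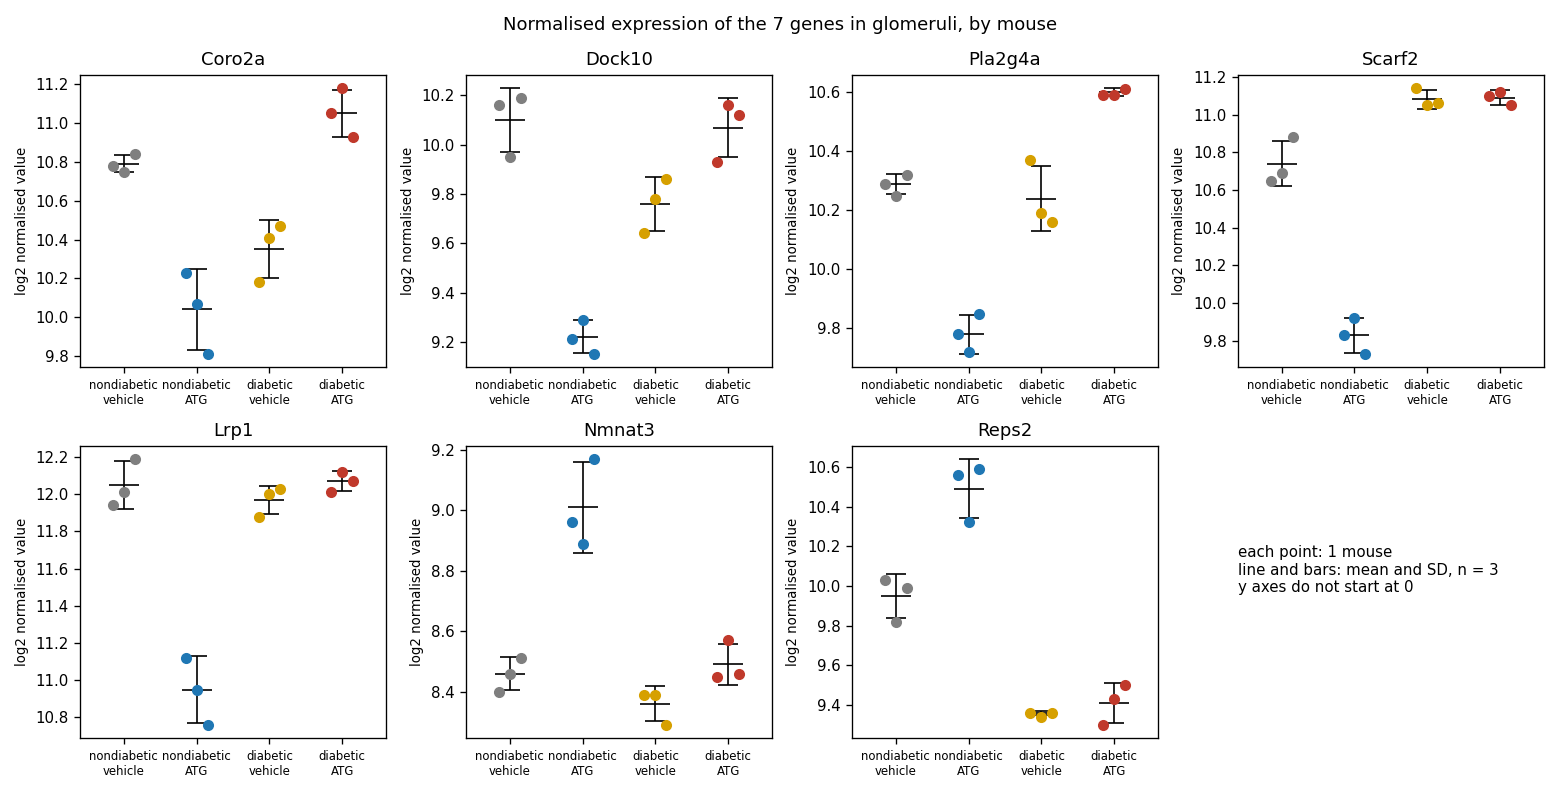
Log2 normalised value of each of the 7 genes (vertical axes, which do not start at 0) in each mouse of the 4 groups (horizontal axes); points are mice, and lines with bars are the mean and SD of 3 mice. The ATG-treated nondiabetic mice are the lowest 3 of 12 for Dock10, Pla2g4a, Scarf2 and Lrp1 and the highest 3 for Nmnat3 and Reps2, and for Coro2a they overlap the vehicle-treated diabetic mice.

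The receptors Scarf2 and Lrp1 were lower with ATG in nondiabetic mice and had nearly the same level with ATG and vehicle in diabetic mice. Scarf2 had log2 values of 10.65, 10.69 and 10.88 with vehicle and 9.83, 9.92 and 9.73 with ATG in nondiabetic mice. Diabetic mice had 11.14, 11.05 and 11.06 with vehicle and 11.10, 11.12 and 11.05 with ATG, ranges that overlapped almost fully. The effect was −0.92 (SE 0.073), 1.89-fold lower, in nondiabetic and 0.0069 (SE 0.073) in diabetic mice. Lrp1 had 11.94, 12.01 and 12.19 with vehicle and 11.12, 10.95 and 10.76 with ATG in nondiabetic mice, and the latter were the lowest 3 of the 12. Its diabetic mice had values from 11.88 to 12.03 with vehicle, the other mouse lying near the upper end, and 12.01, 12.12 and 12.07 with ATG, close to the vehicle-treated nondiabetic level. The effect of −1.10 (SE 0.095) in nondiabetic mice, 2.15-fold lower, was the largest ATG effect of the 7 genes, against 0.097 (SE 0.095) in diabetic mice.

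Nmnat3 and Reps2 went the other way in nondiabetic mice. Among the genes that were higher with ATG there, they had the lowest and the next lowest p, and over genes of both directions they ranked 102 and 105. Nmnat3 had log2 values of 8.40, 8.46 and 8.51 with vehicle and 8.96, 8.89 and 9.17 with ATG in nondiabetic mice. In diabetic mice the values were 8.39, 8.39 and 8.29 with vehicle and 8.45, 8.57 and 8.46 with ATG. The ATG-treated nondiabetic mice were above the other 9, and the remaining groups lay close together. Reps2 had 10.03, 9.82 and 9.99 with vehicle and 10.56, 10.32 and 10.59 with ATG in nondiabetic mice, against 9.36, 9.34 and 9.36 with vehicle and 9.30, 9.43 and 9.50 with ATG in diabetic mice. For Reps2, every nondiabetic mouse was above every diabetic mouse, and the ATG-treated nondiabetic mice were highest. The ATG effect in nondiabetic mice was 0.55 (SE 0.09), 1.47-fold higher, for Nmnat3 and 0.54 (SE 0.089), 1.46-fold higher, for Reps2. In diabetic mice it was 0.14 (SE 0.09) and 0.053 (SE 0.089).

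**Figure D2:**
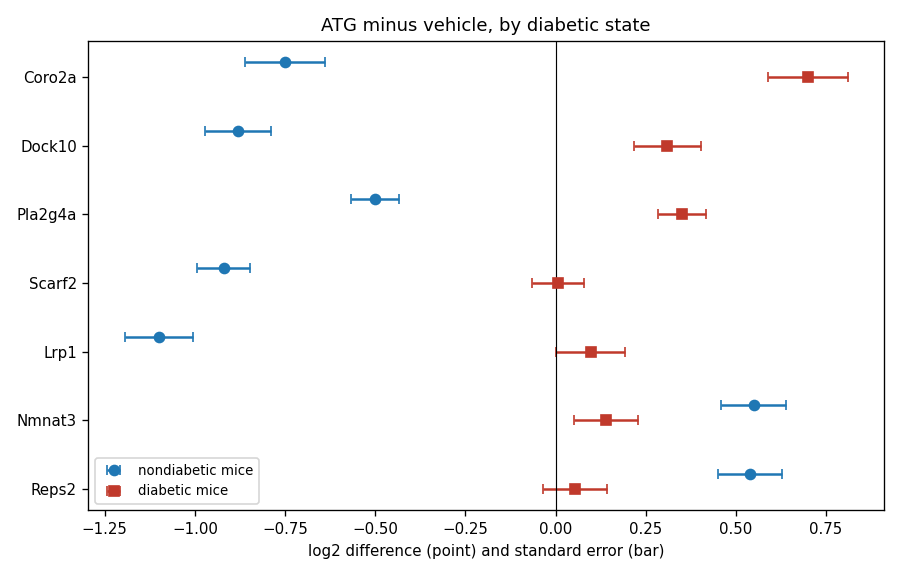
ATG minus vehicle on the log2 scale (horizontal axis) for the 7 genes, in nondiabetic mice (circles) and diabetic mice (squares), with standard errors from the fit over 12 mice as bars. Circles run from −1.10 for Lrp1 to 0.55 for Nmnat3, and squares from 0.0069 for Scarf2 to 0.70 for Coro2a.

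The difference between both ATG effects (diabetic minus nondiabetic) was 1.46 (SE 0.16) for Coro2a, 1.19 (SE 0.13) for Dock10, 0.86 (SE 0.094) for Pla2g4a, 0.92 (SE 0.10) for Scarf2 and 1.20 (SE 0.14) for Lrp1. These 5 genes had the lowest 5 p-values of all genes for it, in that order. Cd248 (1.15, SE 0.14) and Steap4 (1.69, SE 0.21) came next by p and are not among the 7. Nmnat3 (−0.41, SE 0.13) and Reps2 (−0.49, SE 0.13) had a difference of the opposite sign, and ranked 513 and 284. At a limma adjusted p under 0.05, the 5 genes were called higher, against 0.539% of all genes, and neither Nmnat3 nor Reps2 was called lower, against 0.00709% of all genes. For the ATG effect in nondiabetic mice, 5 of the 7 genes were called lower, against 4.51% of all genes, and 2 higher, against 0.709%. Since these comparisons chose the genes, nothing is read from either count. By p, Scarf2 and Lrp1 came first there, followed by C1s1 (−0.88, SE 0.082) and Cd248 (−0.99, SE 0.098), which were not chosen. For the ATG effect in diabetic mice, 0 of the 7 genes and 0% of all 14096 genes were called with limma, or with limma-voom on the recovered reads, while 636 genes had an unadjusted p under 0.05 with limma, Coro2a, Dock10 and Pla2g4a among them.

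**Figure D3:**
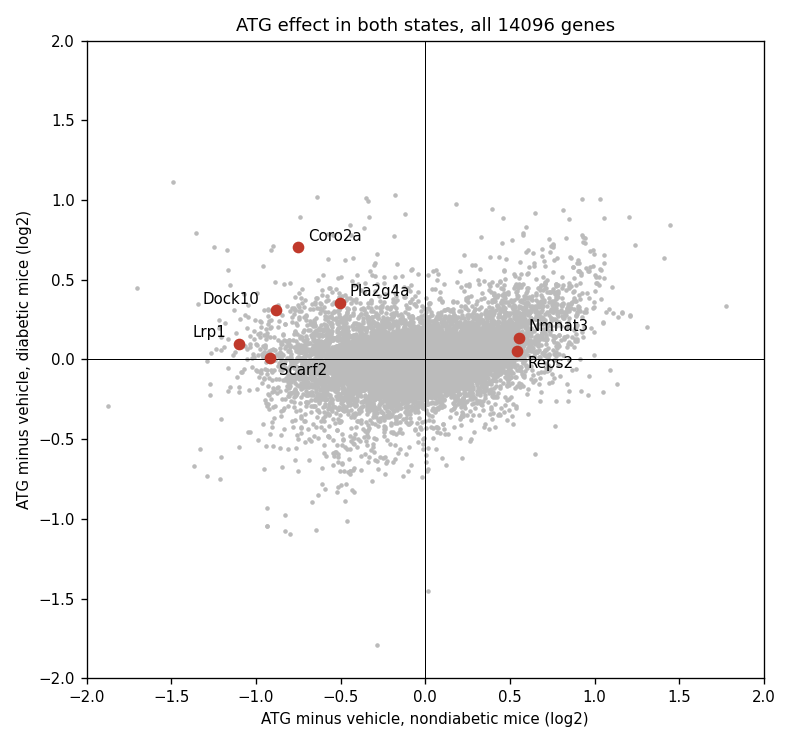
ATG minus vehicle on the log2 scale in nondiabetic mice (horizontal axis) and in diabetic mice (vertical axis) for all 14096 listed genes (grey points), with the 7 genes in red. Coro2a, Dock10 and Pla2g4a lie in the upper left part of the plot, with other genes farther out, Scarf2 and Lrp1 at the left near 0 on the vertical axis, and Nmnat3 and Reps2 inside the right side of the cloud.

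The 3 ATG-treated nondiabetic mice were below the other 9 for 4 of the 7 genes, Dock10, Pla2g4a, Scarf2 and Lrp1, and this held for 13.5% of all genes. They were above the other 9 for Nmnat3 and Reps2, and this held for 10.5% of all genes. A shift of that group alone enters the ATG effect in nondiabetic mice, the difference between the ATG effects and the diabetes effects alike.

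Markers of mesangial cells were also low in that group. All 15 mesangial genes looked for were listed, and 12 of them were called lower with ATG in nondiabetic mice at a limma adjusted p under 0.05, with a median log2 change of −0.92 against −0.039 over all genes. The log2 of their summed values ran from 14.91 to 15.38 in ATG-treated nondiabetic mice, below the 15.95 to 16.30 of vehicle-treated nondiabetic mice, the 15.96 to 16.17 of vehicle-treated diabetic mice and the 16.08 to 16.26 of ATG-treated diabetic mice. Pdgfrb, a defining mesangial receptor, fell by 1.01 (SE 0.13), close to the value of Lrp1. Of 20 endothelial genes, 9 were called lower there, and the sum ran from 17.15 to 18.10 against 18.15 to 18.28 with vehicle. Of 20 podocyte genes, 0 were called with limma, 10 had an unadjusted p under 0.05, and the sum ran from 18.34 to 19.56 against 19.42 to 19.54. Tubule genes, all 30 listed, had a sum of 19.37 to 19.90 with ATG and 18.86 to 19.12 with vehicle in nondiabetic mice, with 0 called by limma and 9 at an unadjusted p under 0.05. In tissue RNA of this kind, fewer cells of a type and less RNA per cell cannot be told apart.

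**Figure D4:**
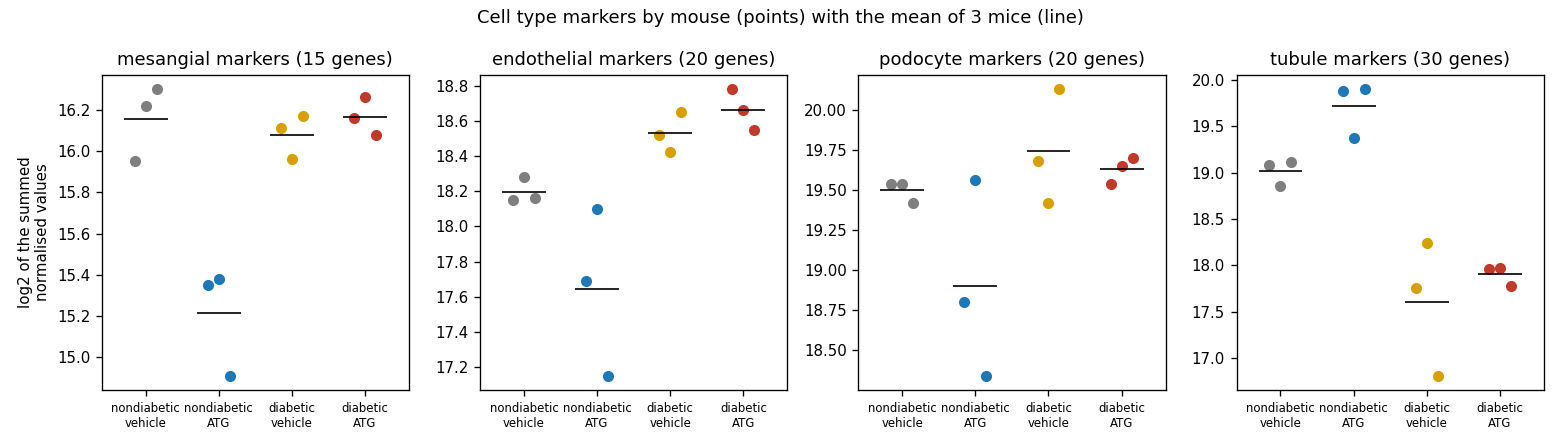
Log2 of the summed normalised values (vertical axes, which do not start at 0) of 15 mesangial, 20 endothelial, 20 podocyte and 30 tubule marker genes in each mouse (points) of the 4 groups, with the mean of 3 mice as a line. The mesangial sum of the ATG-treated nondiabetic mice lies below all other mice, and the tubule sums of both diabetic groups lie below those of both nondiabetic groups.

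With the mesangial marker mean as a covariate, an alternative chosen after the data had been seen, the ATG effect in nondiabetic mice was −0.29 (SE 0.23) for Coro2a, −0.70 (SE 0.23) for Dock10, −0.61 (SE 0.17) for Pla2g4a, −0.61 (SE 0.15) for Scarf2 and −0.64 (SE 0.19) for Lrp1. It was 0.39 (SE 0.22) for Nmnat3 and 0.36 (SE 0.22) for Reps2. All 7 kept their sign, and every standard error was larger than without the covariate. The difference between the ATG effects under that covariate was 0.97 (SE 0.26) for Coro2a, 0.99 (SE 0.26) for Dock10, 0.97 (SE 0.19) for Pla2g4a, 0.59 (SE 0.17) for Scarf2 and 0.71 (SE 0.21) for Lrp1. It was −0.24 (SE 0.25) for Nmnat3 and −0.30 (SE 0.25) for Reps2. With limma, 0 of all 14096 genes, the 7 included, were called for either ATG comparison under that covariate, against 632 and 705 genes at an unadjusted p under 0.05. The mesangial marker mean of every ATG-treated nondiabetic mouse was below that of all other mice. This fit therefore cannot tell a mesangial part from an ATG effect in nondiabetic mice. The part of mesangial RNA in the values of these genes was not tested beyond that.

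The diabetes effect averaged over both treatments was tested, because its sampling error is uncorrelated with that of both comparisons that chose the genes. It uses the same 12 mice, however, and any true shift of the ATG-treated nondiabetic group enters it with the opposite sign. In all 7 genes the averaged sign was opposite to that of the ATG effect in nondiabetic mice, so the test is not independent of the choice in that respect. Genes picked for a low p tend to have a small spread, and the residual SD was 0.0674 to 0.14 for the 7 genes against a median of 0.15 over all genes. With limma, all 7 passed an adjusted p of 0.05, 5 of them higher in diabetic mice, against 28.2% of all genes, and 2 lower, against 23.3%. With such shares of all genes called, the count itself says little about these 7 genes.

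Scarf2 and Reps2 had the firmest diabetes effects. Scarf2 was higher in diabetic mice by 0.80 (SE 0.052, limma adjusted p = 1.16e-05), 1.75-fold on average over both treatments, and by 0.34 (SE 0.073) with vehicle and 1.27 (SE 0.073) with ATG. The Scarf2 average thus came mainly from the ATG-treated mice, in which it had been chosen for a low nondiabetic value. Reps2 fell by 0.83 (SE 0.063, limma adjusted p = 1.7e-05), which is 1.78-fold lower, and was lower by 1.51-fold with vehicle and by 2.11-fold with ATG. Nmnat3, the NAD enzyme, fell by 0.31 (SE 0.064, limma adjusted p = 0.00246), 1.24-fold lower, with a log2 difference of −0.099 (SE 0.09) with vehicle and −0.51 (SE 0.09) with ATG. Its average thus rested mainly on the ATG-treated mice, in which it had been chosen for a high nondiabetic value. For these 3 genes the sign was the same under both treatments. An exact two-sided permutation test of diabetic against nondiabetic mice within treatment (400 arrangements) gave p = 0.005 for each, the smallest that it can give. In all 3 genes the ATG-treated nondiabetic mice lay apart from the other 9. The choice favoured this split, so the exact p is not independent of the choice.

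For Coro2a, Dock10, Pla2g4a and Lrp1 the averaged effect covers opposite signs. Coro2a differed by −0.44 (SE 0.11) between diabetic and nondiabetic mice on vehicle and by 1.02 (SE 0.11) on ATG, an average of 0.29 (SE 0.078, limma adjusted p = 0.00951, exact permutation p = 0.265). Dock10 differed by −0.34 (SE 0.092) and 0.85 (SE 0.092), an average of 0.26 (SE 0.065, limma adjusted p = 0.00685, exact permutation p = 0.21). The average is thus no single diabetes effect in either gene. Pla2g4a differed by −0.043 (SE 0.067) on vehicle and 0.82 (SE 0.067) on ATG, an average of 0.39 (SE 0.047, limma adjusted p = 0.000137, exact permutation p = 0.08). Lrp1 differed by −0.078 (SE 0.095) and 1.12 (SE 0.095), an average of 0.52 (SE 0.068, limma adjusted p = 0.000182, exact permutation p = 0.08). Both thus rested on the ATG-treated mice, and the exact test, which counts the unequal effects under both treatments as spread, did not pass 0.05 for any of the 4. The sign was the same under both treatments for 3 of the 7 genes and for 78.7% of all genes, and nothing is read from this count, since 5 of the genes had been chosen for unlike effects.

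**Figure D5:**
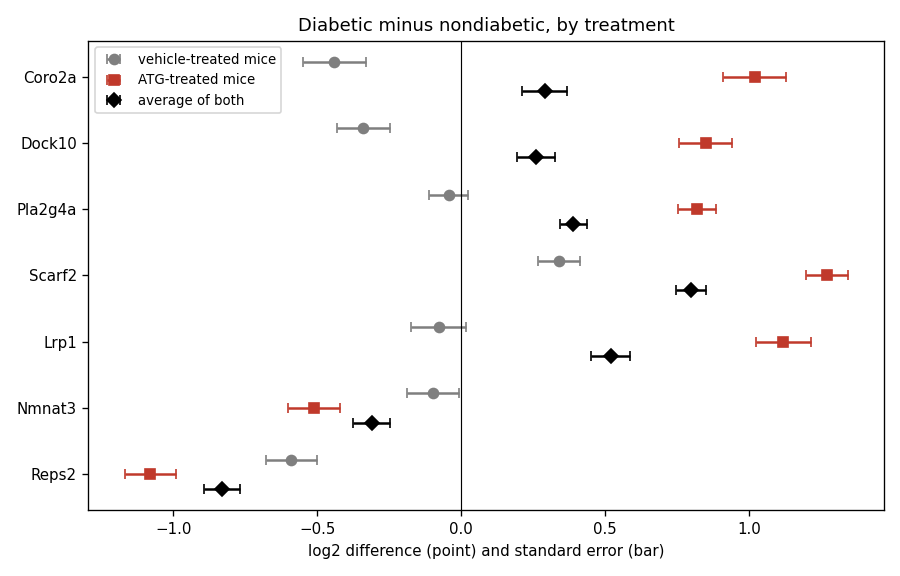
Diabetic minus nondiabetic on the log2 scale (horizontal axis) for the 7 genes, in vehicle-treated mice (circles), in ATG-treated mice (squares) and averaged over both (diamonds), with standard errors as bars. In ATG-treated mice 5 genes lie between 0.82 and 1.27 and 2 genes at −0.51 and −1.08, and in vehicle-treated mice the range is −0.59 to 0.34.

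Within vehicle-treated mice, 4 of the 7 genes (Coro2a, Dock10, Scarf2 and Reps2) were called for diabetes, against 18.9% of all genes, and within ATG-treated mice 7 of 7, against 46.7%. Both comparisons share mice with those that chose the genes, and nothing is read from the counts.

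Markers of all 7 lists looked at moved in part with the averaged diabetes effect. The summed tubule markers ran from 16.81 to 18.24 in diabetic and from 18.86 to 19.90 in nondiabetic mice on the log2 scale, and 28 of 30 tubule genes were called lower in diabetic mice. Of 20 endothelial genes, 18 were called higher, with sums of 18.42 to 18.78 in diabetic mice. Called higher were also 14 of 14 proliferation genes (median 1.37), 5 of 6 erythrocyte genes (median 1.42), 8 of 16 leukocyte genes (median 0.31), 6 of 20 podocyte genes (median 0.32) and 6 of 15 mesangial genes (median 0.23). Of these lists, the erythrocyte and the mesangial list each had 1 gene called lower. The summed erythrocyte markers were not higher in diabetic mice, at 10.06 to 10.89 against 10.50 to 11.37 in nondiabetic mice. Slc4a1 of the erythrocyte list is also in the tubule list. The tubule values of diabetic and nondiabetic mice did not overlap, so a fit with the tubule mean cannot tell a tubule part from a diabetes effect. The part of any cell type in the values of the 7 genes was not tested beyond fits with the tubule or mesangial mean. When the mean of the tubule genes entered the fit as a covariate, only Scarf2 (0.86, SE 0.13, limma adjusted p = 0.0242) and Reps2 (−0.76, SE 0.16, limma adjusted p = 0.0435) of the 7 genes passed. The other 5 kept their sign with larger standard errors. Coro2a had 0.38 (SE 0.19), Pla2g4a 0.46 (SE 0.12) and Lrp1 0.60 (SE 0.17), each above its value without the covariate, with limma adjusted p-values of 0.281, 0.0671 and 0.0847. Dock10 had 0.22 (SE 0.16) and Nmnat3 −0.18 (SE 0.16), with limma adjusted p-values of 0.464 and 0.534. With the mesangial marker mean as covariate, Pla2g4a, Scarf2, Lrp1 and Reps2 passed, while Coro2a had 0.15 (SE 0.093, limma adjusted p = 0.263), Dock10 0.20 (SE 0.09, limma adjusted p = 0.129) and Nmnat3 −0.26 (SE 0.089, limma adjusted p = 0.0622).

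Over the 12 mice, the 5 genes that were lower with ATG in nondiabetic mice varied together, with Pearson's r from 0.693 for Coro2a with Scarf2 to 0.938 for Lrp1 with Scarf2. Nmnat3 and Reps2 varied together at 0.852, and against the other genes at −0.953 (Reps2 with Scarf2) to −0.566 (Reps2 with Coro2a). These coefficients are descriptions over mice that share 4 group means, and the choice of genes fixes most of the pattern.

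The genes most like each of the 7 over the 12 mice, by Pearson's r, differed from gene to gene. For Coro2a, Crybg3 (0.948) is named. For Dock10 they were Robo1 (0.952), a guidance receptor, and Itga8 (0.946), an integrin subunit that is also in the mesangial list. For Pla2g4a they were Plcg1 (0.959), a phospholipase C, and Parp6 (0.95). Few genes exceeded 0.9 with these 3 genes, namely 8, 37 and 14. For Scarf2 they were Prkab2 (0.986), a subunit of AMP-activated kinase, and Abcb1a (0.984), a drug efflux pump, out of 746 genes over 0.9. For Lrp1 they were Arhgef25 (0.982) and Apcdd1 (0.981), out of 154. For Nmnat3 they were Ipp (0.965) and Pex5 (0.946), the receptor for peroxisomal import, out of 57. For Reps2 they were Clcn3 (0.985), a chloride and proton exchanger of endosomes, and Fam134b (0.985), a receptor for turnover of endoplasmic reticulum, out of 828.

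The Gene Ontology terms given with the deposited data place little in common. Calcium ion binding is listed for Pla2g4a, Lrp1 and Reps2, and for 2.75% of all listed genes. Focal adhesion is listed for Scarf2 and Lrp1, and for 2.45% of all listed genes. No term is listed for more than 3 of the 7 genes.

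Relatives of the 7 genes were read from hand-written lists, without the 7 genes themselves, for the averaged diabetes effect by limma, in which 28.2% of all genes were called higher and 23.3% lower. When the mean of the tubule genes was a covariate, the 21 named relatives kept their sign but 3 of them passed. With the mean of the mesangial genes as covariate, 0 genes of the whole table passed for the ATG effect in nondiabetic mice (632 at an unadjusted p under 0.05) or for the difference between the ATG effects (705), so that every call of a relative for ATG below is lost there. The calls of relatives for ATG in nondiabetic mice were also lost without the 2 unnumbered mice, which have no number in the labels. These are 1 vehicle-treated and 1 ATG-treated nondiabetic mouse, so that fit has 2 mice in each nondiabetic group. With only the nondiabetic groups in the fit the calls were lost as well, and with the tubule covariate all except those of Dock6 and Pla2r1 were lost. Of 5 other coronins, 4 were higher in diabetic mice and 0 lower, with a median of 0.57 against 0.036 over all genes and of 0.15 with the tubule covariate, under which no coronin was called. Coro1c rose by 0.59 (SE 0.058, adjusted p = 5.72e-05) and Coro1a, the coronin of leukocytes, by 0.99 (SE 0.13, adjusted p = 0.000162). Their differences between the ATG effects were 0.13 (SE 0.12) for Coro1c and −0.26 (SE 0.25) for Coro1a, against the 1.46 by which Coro2a had been chosen. Of 16 leukocyte markers listed, 8 were higher in diabetic mice, and the part of leukocytes in the coronin values was not tested. Of 10 other DOCK exchange factors, 2 were higher and 1 lower, with a median of 0.061, and with the tubule covariate none was called and the median was −0.059. Dock6 rose by 0.46 (SE 0.055, adjusted p = 0.000128) in diabetic mice on average, from 0.092 (SE 0.077) with vehicle and 0.82 (SE 0.077) with ATG. It fell by 0.62 (SE 0.077, adjusted p = 0.00465) with ATG in nondiabetic mice and had a difference between the ATG effects of 0.73 (SE 0.11, adjusted p = 0.0319). Dock2, of leukocytes, rose by 0.33 (SE 0.093, adjusted p = 0.0123) in diabetic mice, and Dock9 fell by 0.16 (SE 0.051, adjusted p = 0.0198).

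Of 30 other genes of arachidonate and prostanoid metabolism, 11 were higher and 5 lower in diabetic mice, with a median of 0.098. With the tubule covariate 1 was higher and 0 lower, with a median of 0.25. Ltc4s, leukotriene C4 synthase, rose by 1.53 (SE 0.17, adjusted p = 9.75e-05), and Ephx2, soluble epoxide hydrolase, fell by 1.45 (SE 0.19, adjusted p = 0.000192). Pla2r1, a phospholipase A2 receptor, rose by 0.53 (SE 0.068, adjusted p = 0.000178) in diabetic mice on average, from 0.15 (SE 0.096) with vehicle and 0.90 (SE 0.096) with ATG. It fell by 0.74 (SE 0.096, adjusted p = 0.00548) with ATG in nondiabetic mice, with a difference between the ATG effects of 0.75 (SE 0.14, adjusted p = 0.0455). Pla2g4b, a paralogue of Pla2g4a, also fell with ATG in nondiabetic mice, by 0.60 (SE 0.11, adjusted p = 0.0165), and so did Ptgis, prostacyclin synthase, by 0.84 (SE 0.20, adjusted p = 0.0385). With median-ratio scaling Ptgis had an adjusted p of 0.0503 by limma, and with 1 mouse left out it passed in 4 of 12 fits and Pla2g4b in 7.

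Of 13 other scavenger receptors, 8 were higher and 0 lower in diabetic mice, with a median of 0.32. With the tubule covariate 2 were called higher and the median was 0.33. Endothelial markers moved the same way, 18 of 20 higher with diabetes and 9 of 20 lower with ATG in nondiabetic mice, and their part in this list was not tested. Scarf1, the nearest relative of Scarf2, rose by 0.77 (SE 0.067, adjusted p = 3.65e-05) in diabetic mice and fell by 0.51 (SE 0.095, adjusted p = 0.0165) with ATG in nondiabetic mice. Stab1, stabilin of endothelial cells and macrophages, rose by 1.01 (SE 0.063, adjusted p = 1.09e-05) and fell by 0.51 (SE 0.09, adjusted p = 0.0143) in the same comparisons. Pear1 rose by 0.58 (SE 0.073, adjusted p = 0.000158) on average, from 0.19 (SE 0.10) with vehicle and 0.97 (SE 0.10) with ATG, and fell by 0.60 (SE 0.10, adjusted p = 0.0126). Of these 3, Pear1 alone passed for the difference between the ATG effects (0.78, SE 0.15, adjusted p = 0.0489). The scavenger receptors that were called for diabetes or for ATG in nondiabetic mice all had the sign of Scarf2 there.

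Of 15 other genes of the LDL receptor family and its adaptors, 3 were higher and 5 lower in diabetic mice, with a median of −0.14. With the tubule covariate none of the 15 was called and the median was 0.061. Lrp2, megalin of the proximal tubule and 1 of the tubule markers above, fell by 1.84 (SE 0.24, adjusted p = 0.000206). Lrp4 fell by 0.53 (SE 0.10, adjusted p = 0.00167). Only Lrp1b of these 15 was called for ATG in nondiabetic mice (−0.28, SE 0.073, adjusted p = 0.0493), and it did not pass with median-ratio scaling (adjusted p = 0.0832) or the replicate block (adjusted p = 0.057) and passed in 3 of 12 fits with 1 mouse left out.

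Of 24 other genes of NAD synthesis and use, 2 were higher and 11 lower in diabetic mice, with a median of −0.19. Kmo, an enzyme of tryptophan breakdown, fell by 1.76 (SE 0.22, adjusted p = 0.000145), Nadk2, mitochondrial NAD kinase, by 1.15 (SE 0.15, adjusted p = 0.000208), and Slc25a51, the mitochondrial NAD carrier, by 0.39 (SE 0.055, adjusted p = 0.000286). Slc25a51 also rose by 0.32 (SE 0.077, adjusted p = 0.0393) with ATG in nondiabetic mice, the only gene of this list besides Nmnat3 that was called there. With the tubule covariate this value was 0.22 (SE 0.078, adjusted p = 0.251), it passed in 3 of 12 fits with 1 mouse left out, and the diabetes effects were −0.40 (SE 0.31) for Kmo, −0.31 (SE 0.26) for Nadk2 and −0.15 (SE 0.11) for Slc25a51. Under that covariate none of the 24 genes was called for diabetes, and their median was 0.015. Of 19 other genes of EPS15 homology and Ral endocytosis, 7 were higher and 0 lower in diabetic mice, with a median of 0.12, a share of higher genes not far from that of all genes. With the tubule covariate none of the 19 was called and the median was 0.18. Rgl2, a Ral exchange factor, rose by 0.44 (SE 0.037, adjusted p = 3.32e-05) in diabetic mice and fell by 0.33 (SE 0.053, adjusted p = 0.00994) with ATG in nondiabetic mice. Ralb, the GTPase, rose by 0.43 (SE 0.065, adjusted p = 0.000415) and Epn2, an epsin, by 0.53 (SE 0.097, adjusted p = 0.00116) in diabetic mice. Ehd3, Ehd4 and Itsn1 fell with ATG in nondiabetic mice, by 0.74 (SE 0.18), 0.71 (SE 0.18) and 0.41 (SE 0.099), with limma adjusted p-values from 0.041 to 0.0452. Median-ratio scaling gave limma adjusted p-values of 0.0548 to 0.0569, and with 1 mouse left out the 3 genes passed in 2 to 4 of 12 fits. Ehd3 is also in the endothelial list.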

How the data were processed

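mRNA of glomeruli from 12 mice, 3 in each of 4 groups, was sequenced. For each of 14096 genes, the authors deposited a log2 value in every mouse. The submitters' processing notes name mm10 and limma, and the aligner and counter are not given in the sources used here. On the linear scale, 83.4% to 84.1% of values under 2000 were whole multiples of 1 step per mouse (within 0.02 reads), which gave back the reads on the listed genes, 23.6 to 29.8 M (mega) per mouse.

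The 4 group means were fitted over the 12 mice on the deposited log2 values with limma 3.58.1 in R 4.3.3, with a mean-variance trend, no added pseudocount and Benjamini-Hochberg adjustment over all 14096 genes, and genes were called at an adjusted p under 0.05. Exact permutation tests were two-sided, within treatment. Reads per kilobase used the deposited transcript length. The mice of a group are separate animals, and same-numbered mice of different groups were not taken as pairs. The 7 genes, the gene lists and the tests were chosen with earlier results of these data known. Named besides the 7 genes are up to 3 called genes with the lowest p per list, the 2 genes most like each of the 7, the next 2 genes by p in both comparisons that chose them, Nos3 and defining markers. Genes of the lists called for ATG are also named, which was decided after their values had been seen. Some genes that this rule names are not reported here. Gene spans and promoter windows are from RefSeq (GRCm38.p6), in which 14071 Entrez identifiers were found, and all 7 genes had a window. The fit was tested on simulated data.

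Alternatives were median-ratio scaling, a minimum of 10 reads in all mice, limma-voom on reads recovered as above, a variance prior without trend, the replicate block, the tubule marker mean as covariate, only the groups compared, each mouse left out and the 2 unnumbered mice left out. Covariates with the mesangial marker mean were chosen after the data had been seen. Plots were made in Python 3.11.15 (matplotlib 3.10.9).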

Additional observations from a re-analysis of the deposited data

Results flagged for a closer look

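The ATG effect differed between diabetic and nondiabetic mice for 5 of the 7 genes by the test of that difference, but the genes had been chosen by it, so the values describe the choice and support nothing further. The difference (diabetic minus nondiabetic, log2) was 1.46 for Coro2a, 1.19 for Dock10, 0.86 for Pla2g4a, 0.92 for Scarf2 and 1.20 for Lrp1.

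Of the relatives of the 7 genes, 3 had a difference between the ATG effects that passed limma's adjusted p over all genes. It was 0.73 for Dock6 (SE 0.11, adjusted p = 0.0319), 0.75 for Pla2r1 (SE 0.14, adjusted p = 0.0455) and 0.78 for Pear1 (SE 0.15, adjusted p = 0.0489). In all 3 the mean of the ATG-treated nondiabetic mice was the lowest of the 4 groups, at 11.18 for Dock6, 10.05 for Pla2r1 and 10.37 for Pear1, against 11.81, 10.80 and 10.98 in vehicle-treated nondiabetic mice. These calls were lost under several alternatives. With the mesangial marker mean as covariate the differences were 0.41 (SE 0.19), 0.26 (SE 0.21) and 0.17 (SE 0.20), with limma adjusted p-values from 0.917 to 0.942. With the replicate block they were the same size as before, with limma adjusted p-values from 0.0825 to 0.104, and without the unnumbered mice they were 0.67, 0.60 and 0.59, with limma adjusted p-values from 0.143 to 0.156. None of the 3 passed without a trend in the prior (limma adjusted p-values from 0.0524 to 0.0673). With 1 mouse left out, Dock6 passed in 5 of 12 fits and Pla2r1 and Pear1 in 2 each. Endothelial markers, like mesangial markers, were lowest in the ATG-treated nondiabetic mice, and the endothelial part in these values was not tested.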

How the results depend on the processing

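None of the values of the 7 genes changed sign where it was called, and 132 of 147 values of their averaged diabetes effect stayed on the same side of the threshold. Leaving out any 1 mouse left 7 of 7 called for that effect (range 7 to 7). The tubule covariate left 2 called, the mesangial covariate 4 and both together 2. With the tubule covariate and with both, the effects of Coro2a (0.38 and 0.30), Pla2g4a (0.46 and 0.48) and Lrp1 (0.60 and 0.52) were no smaller than without (0.29, 0.39 and 0.52), and their standard errors were larger. The replicate block left 5 called, with Coro2a at 0.25 (limma adjusted p = 0.0937) and Dock10 at 0.23 (limma adjusted p = 0.0663). Deviations of same-numbered mice correlated at −0.59 to 0.339 across genes. They were not over 0.1 for every pair, so the numbers were not taken to pair the mice.

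Counts over all genes moved more. The averaged diabetes effect (7261 genes called) fell to 4816 with the replicate block, 251 with the tubule covariate, 3285 with the mesangial covariate and 405 with both, and was 6326 to 7967 with 1 mouse left out. The ATG effect in nondiabetic mice (736) was 45 with the tubule covariate, 0 with the mesangial covariate (632 at an unadjusted p under 0.05), 0 with both (1505), 0 with only the groups compared in the limma fit (3968) and 8 without the 2 unnumbered mice. With 1 mouse left out it was 60 (without vehicle-treated nondiabetic replicate 2) to 3531 (without ATG-treated nondiabetic replicate 2), and every mouse except vehicle-treated diabetic replicate 2 moved it by over 1.5 times. Median-ratio scaling changed the split of this comparison from 100 higher and 636 lower to 130 and 408.

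The difference between the ATG effects (77) was 19 without a trend, 8 with the replicate block, 31 with the tubule covariate, 0 with the mesangial covariate (705 at an unadjusted p under 0.05), 0 with both (1254) and 6 without the unnumbered mice. With 1 mouse left out it was 6 to 770, the latter without ATG-treated nondiabetic replicate 2, and each of the 12 mice moved it by over 1.5 times. The diabetes effect in vehicle-treated mice (2659) was 1375 with the replicate block, 269 with the tubule covariate, 135 with both covariates and 801 to 3357 with 1 mouse left out, lowest without vehicle-treated nondiabetic replicate 1, and it moved by over 1.5 times without any of the 3 vehicle-treated nondiabetic mice or vehicle-treated diabetic replicate 1. In ATG-treated mice (6585) it was 102 with the tubule covariate, 0 with the mesangial covariate (1665 at an unadjusted p under 0.05), 0 with both (2536) and 4314 without the unnumbered mice. The cause of these changes was not tested. The part of depth, 23.6 to 29.8 M (mega) reads per mouse, was not tested.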
